A study of Homo sapiens with 4 samples.

Results

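The thioredoxin and peroxiredoxin system was described in human Nalm-6 cells through 10 genes: the thioredoxins TXN and TXN2, their reductases TXNRD1 and TXNRD2, the sulfiredoxin gene SRXN1, and the peroxiredoxins PRDX1, PRDX2, PRDX3, PRDX5 and PRDX6. The genes were taken by function, and their probes were found through the RefSeq accessions on the array. All 10 genes had a probe, 12 probes in all, out of 18203 genes with a probe. TXN and PRDX5 had 2 probes each and the other genes 1.

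Nalm-6 is a pre-B leukaemia cell line. The study asked how the chromatin remodelling complex INO80, which slides and restructures nucleosomes, acts in the response to heme, an inducer of oxidative stress. There were 4 cultures with 1 array each. The WT culture was wild type. In Arp5 KO, a single established line, both alleles of the gene for the INO80 subunit Arp5 (ACTR5) had been disrupted. In Arp8 KO the gene for the subunit Arp8 (ACTR8) had been disrupted. The paper takes its Arp8 KO cells from earlier work, and states that conditional knockout of Arp8 was lethal to cells. Whether and when the knockout was induced in this culture is not stated in the sources used here. The remaining culture was labelled Arp8 OE, for overexpression of Arp8, and how it was made is not given in the sources used here. The treatment protocol names 20 uM heme for 12 hours for every culture, as do the titles. The treatment field, however, gives no heme for either knockout, and the source name gives no heme for Arp5 KO alone. Genotype and treatment of the knockouts therefore cannot be told apart here.

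Thioredoxin is a small protein that reduces disulfide bonds in other proteins and is recycled by thioredoxin reductase, a selenoprotein, at the expense of NADPH. Peroxiredoxins are abundant enzymes that remove hydrogen peroxide and organic peroxides through a reactive cysteine, and most of them rely on thioredoxin to be reduced again. When that cysteine is oxidised too far, sulfiredoxin repairs it. TXN, TXNRD1, PRDX1, PRDX2 and PRDX6 act mainly in the cytosol, TXN2, TXNRD2 and PRDX3 in mitochondria, and PRDX5 in several compartments. Several of these genes are known targets of NRF2, the transcription factor that binds antioxidant response elements, whereas BACH1 is a heme-sensing repressor at such elements.

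The stretches upstream of TXN and TXNRD1 are shown because these were the member genes with the largest differences on the Arp8 arrays. RefSeq windows of the build GRCh38.p14 were at hand for 7 of the 10 genes, 11 windows in all, and TXN2, PRDX1 and PRDX6 had no entry. Each sequence is the 250 bases before an annotated start, read 5′ to 3′ on the strand of the gene. Capitals mark 4 sets of letters searched on both strands: the core of the antioxidant response element (TGACNNNGC), the AP-1 site (TGANTCA), the GC box (GGGCGG) and the TATA box (TATAAA).
TXN, chr9:110256508-110256757, minus strand: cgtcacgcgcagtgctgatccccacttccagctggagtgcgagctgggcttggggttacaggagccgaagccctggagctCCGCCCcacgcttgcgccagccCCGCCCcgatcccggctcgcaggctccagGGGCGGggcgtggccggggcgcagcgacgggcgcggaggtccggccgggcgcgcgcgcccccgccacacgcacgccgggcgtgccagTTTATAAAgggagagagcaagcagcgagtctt
TXNRD1, first window, chr12:104215529-104215778, plus strand: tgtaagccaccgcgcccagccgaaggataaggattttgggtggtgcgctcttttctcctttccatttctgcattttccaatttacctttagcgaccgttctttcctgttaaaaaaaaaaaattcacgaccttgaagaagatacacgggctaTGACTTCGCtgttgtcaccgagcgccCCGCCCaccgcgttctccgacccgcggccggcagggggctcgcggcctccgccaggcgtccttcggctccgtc
TXNRD1, second window, chr12:104286782-104287031, plus strand: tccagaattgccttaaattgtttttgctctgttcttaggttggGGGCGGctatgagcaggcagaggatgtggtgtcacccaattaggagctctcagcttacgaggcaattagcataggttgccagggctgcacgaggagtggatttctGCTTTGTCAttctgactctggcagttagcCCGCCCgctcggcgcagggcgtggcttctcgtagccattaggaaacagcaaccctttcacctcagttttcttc

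Each TXNRD1 window held 1 antioxidant response element core, TGACTTCGC on the plus strand in the first and, in the second, GCTTTGTCA, which reads as the core on the other strand. These cores lay between 99 and 91 and between 102 and 94 bases before the respective start. The core stood in 2 of the 11 member windows, both of TXNRD1, and in 10.9% of all 35116 windows. The TXN window held 3 GC boxes and a TATA box between 30 and 25 bases before the start, which overlapped a match on the other strand. A GC box stood in 8 of the 11 member windows, from 6 genes, and in 42.6% of all windows. TATA letters stood in 2 of the 11 and in 10.7% of all. AP-1 letters stood in 0 of the 11 and in 6.57% of all. A match is a description of letters and not of binding.

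Levels were expressed as log2 of the processed signal over the 75th percentile of the same array, so that a level of 0 is the brightness at that percentile. The 75th percentiles lay between 647.4 and 739.6 intensity units, between 55.8% and 57.4% of probes were well above background, and 0 spots were saturated. All 4 arrays lay on 1 slide and shared its scan. The 7 pre-B marker genes examined, PAX5 and CD79A among them, were well above background on every array. Levels within that set differed: DNTT, the terminal transferase of early lymphoid cells, rose 3.43-fold in Arp8 KO and 2.03-fold in Arp8 OE, and VPREB1, a surrogate light chain gene, fell 2.39-fold in Arp8 KO. Their part in the results below was not tested. Of the 3 T cell, 3 myeloid, 3 erythroid and 2 epithelial markers, 1 or 2 genes of each set were well above background on any array. ACTR5 fell by 4.27 on the log2 scale in Arp5 KO. ACTR8 differed by -0.53 and -0.68 on its 2 probes in Arp8 KO, and by 0.02 and -0.01 in the culture labelled Arp8 OE. ACTR8 in Arp8 KO was thus 1.44- and 1.60-fold lower, against 19.3-fold for ACTR5 in Arp5 KO, so that most of its signal remained in the library labelled Arp8 KO. Where the probes lie relative to the disruption is not known. The library labelled Arp8 OE showed no raised ACTR8 level, so its differences are given without reading them as those of excess Arp8. HMOX1, the heme oxygenase gene, fell by 2.98 on the log2 scale relative to WT in Arp5 KO and by 2.91 in Arp8 KO, and its Arp8 OE difference was -2.05.

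With 1 array per genotype there was no replicate culture, no test and no p-value. A probe was called when it differed more than 2-fold between 2 arrays. The error available was that between spots: among probes printed 10 times, the SD of a difference from WT had a median of 0.04 (log2) above the 75th percentile and of 0.08 to 0.10 below it. It covers spot noise only and leaves out differences between cultures and labellings. None of the member probes was printed more than once.

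Of the 12 member probes, 11, from 9 genes, were well above background on all 4 arrays. In the Arp5 KO array 0 of these 11 probes were past 2-fold in either direction, where 2.01% of 24285 tested probes were lower and 1.69% higher. In the Arp8 KO array 2 of 11 fell and 0 rose past 2-fold, where 4.35% of 24578 tested probes were lower and 3.37% higher. In the Arp8 OE array 2 of 11 fell and 0 rose, where 2.15% of 24177 were lower and 2.96% higher. The 2 probes were in both cases those of TXN. Without them the count was 0 in every comparison.

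**Figure D1:**
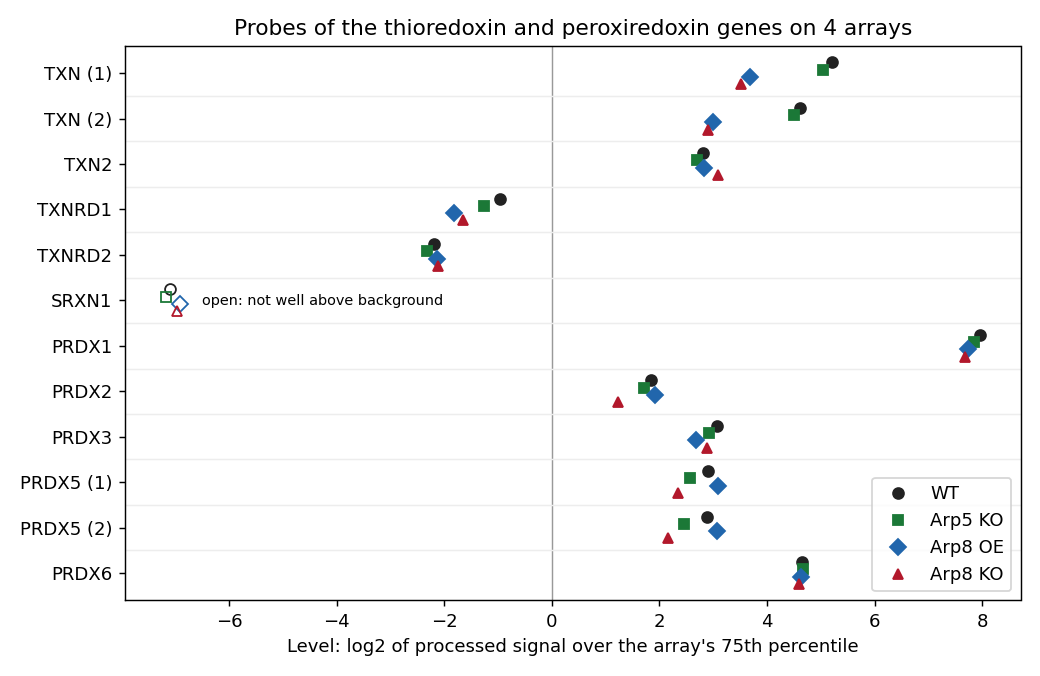
Level of each member probe (log2 of processed signal over the array's 75th percentile) on the 4 arrays, 1 point per array. Filled points are well above background and open points, all of SRXN1, are not; (1) and (2) are the 2 probes of a gene. Both TXN probes separate WT and Arp5 KO from the Arp8 arrays, and PRDX6 lies within 0.07 on all 4.

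TXN encodes cytosolic thioredoxin, the main electron donor of the system. The level of its probe A_23_P60248 reached 5.21 in WT and 5.04 in Arp5 KO, against 3.68 in Arp8 OE and 3.52 in Arp8 KO. That of its other probe, A_24_P175519, was 4.62, 4.50, 2.99 and 2.90 in the same order. The WT and Arp5 KO levels stood together and well above those of the cultures labelled with Arp8, on each probe. As a mean of both probes, TXN fell by 1.70 on the log2 scale, 3.25-fold, in Arp8 KO and by 1.57, 2.98-fold, in Arp8 OE. In Arp5 KO the difference was -0.14. TXN in Arp8 KO was also 2.95-fold below Arp5 KO, a difference of -1.56 in which WT had no part, whereas Arp8 KO and Arp8 OE differed by -0.13. Across all tested probes, 1.62% and 1.53% were lower than the TXN probes in Arp8 KO, and 1.02% and 0.914% in Arp8 OE.

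The genes that lie beside TXN on chromosome 9 were lower on the same arrays. This was looked at after the TXN values were seen, because the 3 probes with the profile nearest to TXN over the 3 differences from WT, among 16574 probes, were those of AOPEP, SMC2 and NANS, which all lie on that chromosome. Measured genes, those well above background on all 4 arrays, were put in the order of the assembly GRCh38.p14. Over the 10 measured genes on either side of TXN, the median difference was 0.01 in Arp5 KO, against -0.90 (Arp8 KO) and -1.09 (Arp8 OE). Of these 20 genes, 8 (Arp8 KO), 12 (Arp8 OE) and 0 (Arp5 KO) were past 2-fold lower. Over all tested probes the shares were 4.35% (Arp8 KO), 2.15% (Arp8 OE) and 2.01% (Arp5 KO). These shares are of single probes, some of them dim on 1 array, whereas the counts are of genes measured on all 4 arrays. RAD23B, a nucleotide excision repair gene, differed by -1.08 (Arp8 KO) and -1.21 (Arp8 OE), and GNG10, the next measured gene on the far side, by -1.49 and -1.11. UGCG, which encodes glucosylceramide synthase, differed by -0.89 and -0.71. Not every neighbour was lower. PALM2AKAP2, right beside TXN, differed by 0.01 and 0.11, and the cholesterol transporter gene ABCA1 by -0.23 and 0.76.

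With a running median over 5 genes below -0.5, the run reached in Arp8 KO from LOC100128361 to SLC31A2, 62 genes, with a median of -1.01. The running median sets these ends: LOC100128361 itself stood at 0.47 and SLC31A2 at -0.29. In Arp8 OE the same measure gave TDRD7 to INIP, 40 genes, with a median of -1.13. It stopped at TDRD7 because 4 genes before it, from MKRN10P to CCDC180, lay between -0.17 and 0.45, and further genes beyond them were low again, such as FANCC, a Fanconi anaemia gene, at -1.16. Over the 62 genes of the Arp8 KO run, 56 were below 0 in Arp8 OE and 39 past 2-fold lower. Of all tested probes in Arp8 OE, counted singly, 12082 of 24177 lay below 0 and 2.15% were past 2-fold lower. The Arp8 KO and Arp8 OE differences share the WT array. Each run was set by these same values, so its own median and count below 0 follow largely from that rule. Within each array's own run, 59 of 62 genes in Arp8 KO and 38 of 40 in Arp8 OE were below 0. Arp5 KO had a median of -0.04 and -0.02 over the same genes. The other measured genes of chromosome 9 had a median of -0.02 in Arp8 OE and of 0.02 in Arp8 KO. INIP, the last of the run in Arp8 OE, stood at -1.11 there, and FKBP15, the second measured gene after it, at 0.01. TXN was low even within the run: 3 of the 62 genes in Arp8 KO and 3 of the 40 in Arp8 OE had a lower value. It lay below the median of its 20 neighbours by a further -0.80 in Arp8 KO and -0.48 in Arp8 OE.

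**Figure D2:**
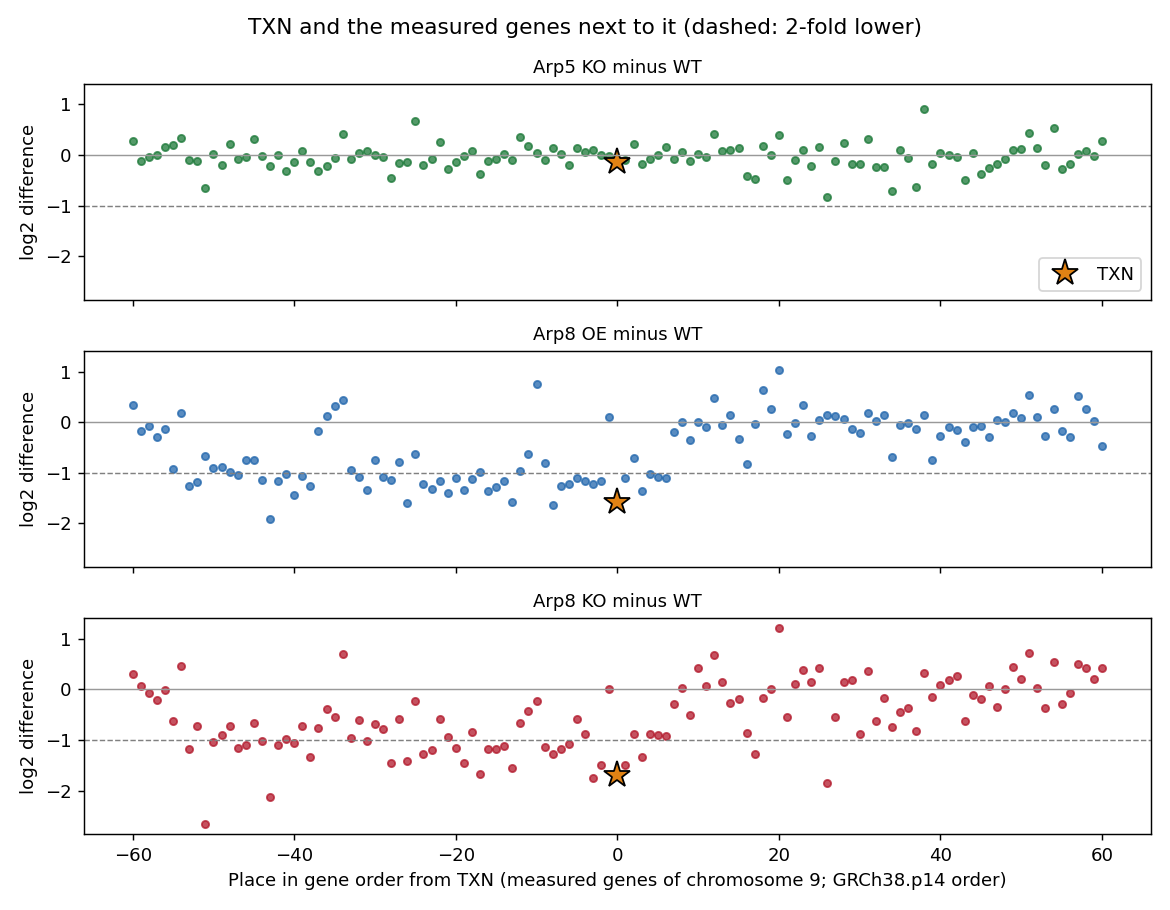
Difference from WT (log2) of TXN and of the 60 measured genes on either side of it, in gene order along chromosome 9, for Arp5 KO, Arp8 OE and Arp8 KO. Each point is the mean of a gene's probes on 1 array; the genes of a long run that includes TXN lie about 2-fold lower on both Arp8 arrays and near 0 in Arp5 KO.

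The 8 other member genes that were measured did not have neighbours as low as those of TXN. The median over the 20 genes next to each lay between -0.27 and 0.16 in Arp8 KO and between -0.14 and 0.09 in Arp8 OE. The -0.27 was that of the genes next to TXN2, which include HMOX1. Of 10691 genes with 10 measured genes on each side, 37 (Arp8 KO) and 29 (Arp8 OE) had a lower neighbour median than TXN, and all of these lay on chromosome 9. For TXN2, 153 of the 10691 had a lower neighbour median in Arp8 KO. In Arp5 KO, where the TXN2 neighbour median was -0.11, 145 had a lower one. Genomic DNA was not analysed here, and the part of the run around TXN in the TXN difference was not tested.

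TXN2, the mitochondrial thioredoxin, did not follow TXN. WT stood at 2.82, Arp5 KO at 2.70, Arp8 OE at 2.83 and Arp8 KO at 3.09. Arp8 KO was the highest of these, by 0.27 over WT, and the other arrays lay within 0.13. Its spot lay beside one that was bright on the Arp8 KO array alone, as 12.9% of all spots lay beside a spot bright on 1 array.

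TXNRD1 encodes the cytosolic reductase that recycles thioredoxin. The level in WT was -0.97, that in Arp5 KO -1.26, that in Arp8 OE -1.82 and that in Arp8 KO -1.64. WT was the highest and the Arp8 arrays were the lowest, as for TXN. The difference from WT was -0.85 in Arp8 OE (1.81-fold), -0.68 in Arp8 KO (1.60-fold) and -0.29 in Arp5 KO, none of them past 2-fold but each over the spot SD of 0.08 to 0.10. The genes next to it on chromosome 12 had medians of -0.13, 0.12 and 0.03. TXNRD2, the mitochondrial reductase, stood at -2.19, -2.32, -2.13 and -2.11 in WT, Arp5 KO, Arp8 OE and Arp8 KO. Its differences from WT lay between -0.14 and 0.08, near the spot SD.

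SRXN1 encodes sulfiredoxin, which restores overoxidised peroxiredoxins and is a known NRF2 target. On no array was its probe well above background, and its measured levels were -7.10 in WT, -7.18 in Arp5 KO, -6.91 in Arp8 OE and -6.96 in Arp8 KO. No difference was taken from it.

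**Figure D3:**
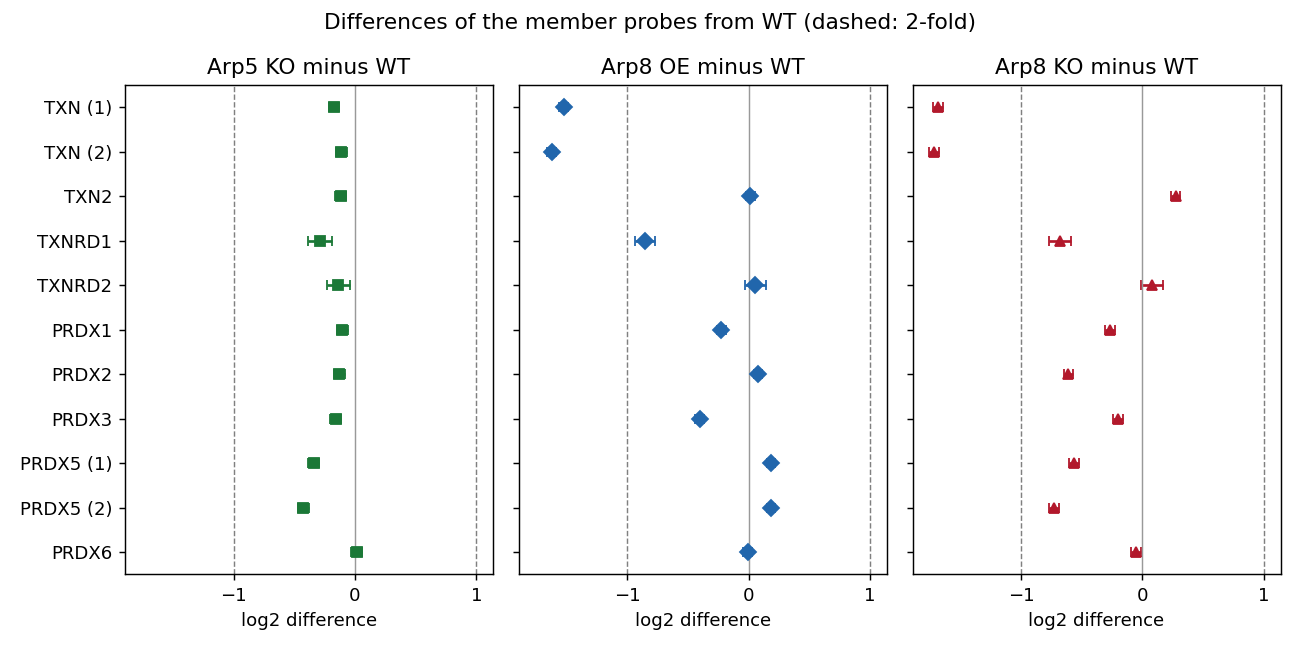
Difference from WT (log2) of the 11 member probes well above background, for Arp5 KO, Arp8 OE and Arp8 KO. Bars are the median SD between spots at that brightness, which leaves out differences between cultures, and dashed lines mark 2-fold. The TXN probes alone are past these lines, in Arp8 OE and Arp8 KO. Of the probes within them, 1 each of TXNRD1, PRDX2 and PRDX5 is past 1.5-fold lower in Arp8 KO.

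Among the typical peroxiredoxins, which form disulfide-linked dimers, PRDX1 had a level of 7.96 in WT, 7.85 in Arp5 KO, 7.73 in Arp8 OE and 7.69 in Arp8 KO. The 4 arrays spanned 1.20-fold. PRDX2, abundant in blood cells, stood at 1.84, 1.71, 1.92 and 1.23 in WT, Arp5 KO, Arp8 OE and Arp8 KO. Arp8 KO was the lowest and stood apart from the other arrays, with a difference of -0.61 from WT (1.53-fold), -0.48 from Arp5 KO and -0.69 from Arp8 OE. PRDX3, the mitochondrial member, stood at 3.08, 2.92, 2.67 and 2.88. It was lowest in Arp8 OE, by -0.41 from WT, and by -0.20 in Arp8 KO.

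PRDX5, an atypical peroxiredoxin that acts as a single chain, was the member whose lower level in both knockouts was the largest when the smaller of its knockout differences was counted. The levels of A_23_P12989 were 2.91 in WT, 2.57 in Arp5 KO, 3.09 in Arp8 OE and 2.34 in Arp8 KO, and those of A_24_P155378 were 2.88, 2.46, 3.06 and 2.15. Both probes gave the same order, with Arp8 OE highest, then WT, then Arp5 KO, then Arp8 KO. As a mean of probes, the PRDX5 differences from WT were -0.38 (Arp5 KO), -0.65 (Arp8 KO) and 0.18 (Arp8 OE), none past 2-fold. The first probe lay beside a spot bright on the Arp8 KO array alone, and the second, which did not, had the larger difference in Arp8 KO, -0.73 against -0.57. The probes nearest to this profile, by distance over the 3 differences, were those of the phosphatase gene DUSP3, the amino acid transporter gene SLC38A2 and the autophagy kinase gene ULK1, at 0.0583, 0.0696 and 0.0697. PRDX6, which uses 1 cysteine and relies on glutathione, varied least, with levels of 4.65 in WT, 4.67 in Arp5 KO, 4.64 in Arp8 OE and 4.60 in Arp8 KO.

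As a group, the 11 member probes had a median difference of -0.14 in Arp5 KO, where that of all tested probes was 0.00, and 10 of the 11 lay below 0. Among all tested probes, 11982 of 24285 (Arp5 KO), 11628 of 24578 (Arp8 KO) and 12082 of 24177 (Arp8 OE) lay below 0. TXN and PRDX5 count with 2 probes each. In Arp8 KO the median was -0.57, against 0.03 over all probes, and 9 of 11 lay below 0. It was -0.27 without the TXN probes, and also -0.27 with the brightest probe of each gene. In Arp8 OE the median was -0.01, against 0.00, and 6 of 11 lay below 0. It was -0.23 without the probes beside a spot bright on 1 array. At a threshold of 1.5-fold, 5 member probes were lower and 0 higher in Arp8 KO, where 11.2% of all probes were lower and 10.0% higher. These were the TXN probes and 1 probe each of TXNRD1, PRDX2 and PRDX5. In Arp8 OE 3 were lower and 0 higher, the TXN probes and TXNRD1, where 5.67% were lower and 7.93% higher. In Arp5 KO 0 were past it, where 4.69% were lower and 4.15% higher. All 3 comparisons share the WT array.

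The surrounding pathway was read through 40 further genes in 10 lists, from thioredoxin-like proteins, sestrins and glutaredoxins to the NRF2 regulators. All 40 had a probe. In Arp8 KO, 0 of 52 tested probes fell past 2-fold and 2 rose, a share near the 3.37% of all probes. Both were those of SESN1, a sestrin, one of the stress-induced proteins that limit growth signalling. SESN1 had levels of -1.85 in WT, -1.42 in Arp5 KO, -1.54 in Arp8 OE and 0.01 in Arp8 KO on its brighter probe, and differed by 1.86 and 1.84 from WT in Arp8 KO. In Arp5 KO, 0 of 53 probes fell and 1 rose, a probe of BACH1 at 1.82, where 1.69% of all probes were higher. Its level was low, -4.73 in WT and -2.91 in Arp5 KO, it lay beside a spot bright on the Arp5 KO array alone, and the other BACH1 probe differed by 0.05. In Arp8 OE, 0 of 52 probes were past 2-fold in either direction, where 2.15% of all probes were lower and 2.96% higher. The median over these lists stood at -0.04 (Arp8 KO), -0.14 (Arp8 OE) and 0.01 (Arp5 KO).

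Each of the lists held 3 to 7 genes. The 6 measured genes of the further thioredoxin system, which includes the inhibitor TXNIP and the endoplasmic reticulum peroxiredoxin PRDX4, lay between -0.46 and 0.43 in Arp8 KO and between -0.49 and 0.58 in Arp8 OE. The glutaredoxins, which do related work with glutathione, lay between -0.36 and 0.19 over the knockout comparisons. Catalase and the superoxide dismutases lay between -0.60 and 0.29 in Arp8 KO, and ribonucleotide reductase, which draws electrons from thioredoxin to make DNA precursors, between -0.42 and 0.50. The methionine sulfoxide reductases, which also depend on thioredoxin, ran from -0.75 to 0.46 in Arp8 KO. The 2 of their 5 tested probes past 1.5-fold lower, where 11.2% of all probes were, both belong to MSRB1, and the MSRA probes stood at 0.46 and 0.09. The machinery that inserts selenocysteine, needed for both reductases, lay between -0.06 and 0.50 there, and the signalling proteins that thioredoxin reduces between -0.04 and 0.71. Of the 8 probes of NRF2 regulators, 0 were past 2-fold and 2, both of MAFG, past 1.5-fold lower in Arp8 KO, where they ran from -0.90 to 0.54. Of all tested probes there, 4.35% were past 2-fold lower, 3.37% past 2-fold higher and 11.2% past 1.5-fold lower. The genes that supply mitochondrial NADPH ran from 0.08 to 0.72 in Arp5 KO, all 4 probes above 0, and from -0.44 to -0.11 in Arp8 KO, all 4 below. The 2 highest in Arp5 KO, 0.72 and 0.70, were both of ME3, whereas IDH2 stood at 0.15 and NNT at 0.08.

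**Figure D4:**
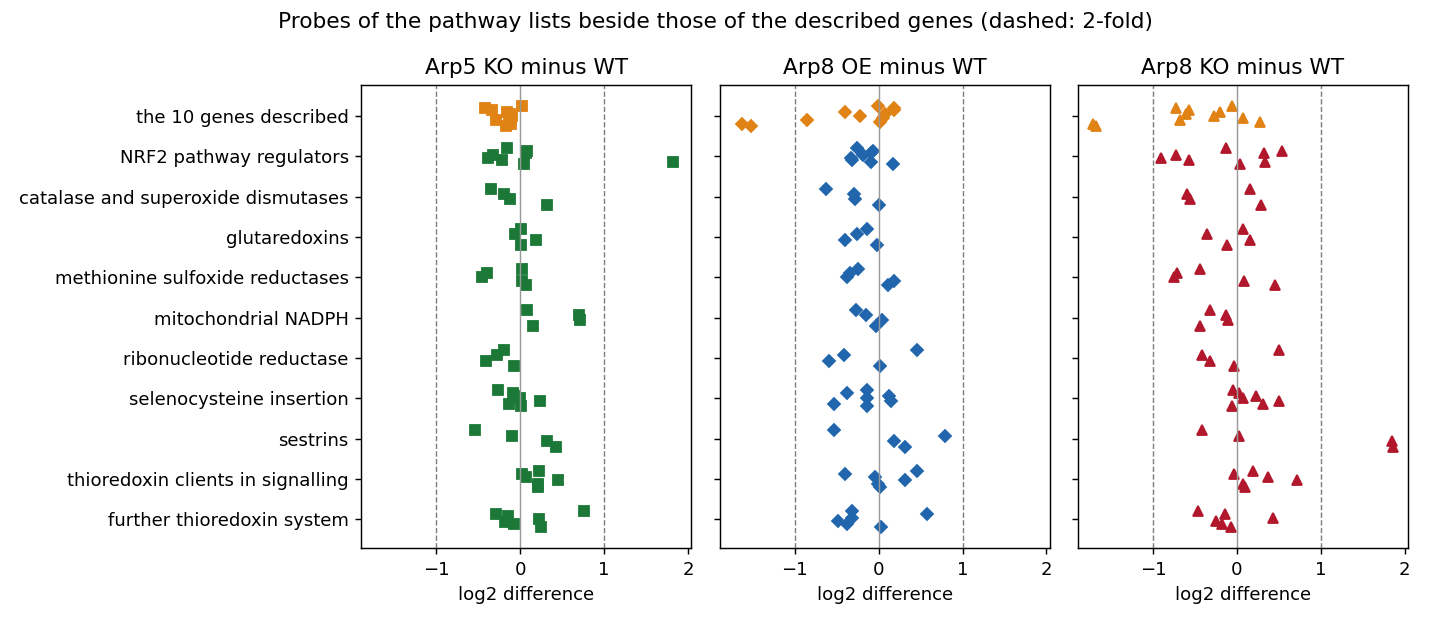
Difference from WT (log2) of each tested probe of the 10 pathway lists, 1 point per probe on 1 array, with the 11 probes of the described genes on top. Dashed lines mark 2-fold; the TXN probes, the SESN1 probes in Arp8 KO and 1 BACH1 probe in Arp5 KO are the points outside them.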

How the data were processed

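RNA of 4 cultures, labelled with Cy3, was measured on 1-colour Agilent arrays, 1 per culture. The deposited scanner files hold intensity made by the authors with Agilent Feature Extraction 10.10.1.1, background-subtracted and detrended within the array but not normalized between arrays, with other values, flags of 0 or 1 per spot, also deposited. The authors' deposited series matrix holds the same intensity times 1 factor per array (1.99 to 2.29) and served as an alternative.

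Log2 signal was taken relative to each array's 75th percentile, and outlier spots (69 to 76 per array) were left out. A probe was tested if at least 50% of its spots were well above background on at least 1 array compared, and a dim value was raised to the lowest level well above background. Of 41000 probes, 27210 matched 1 gene symbol through RefSeq (GRCh38.p14). The file headers name hg19, so array coordinates are not given. Scripts used Python 3.11.15, pandas 2.3.3 and, for alternatives, limma 3.58.1 in R 4.3.3, and were tested on simulated data. Normexp (offset 50) used the median spot signal, since the files used hold no mean.

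The member genes and lists were chosen with earlier results of these data known. The text names all member genes, ACTR5, ACTR8 and HMOX1 as checks, pathway genes past 2-fold and the 3 nearest profiles to the member with the largest shared knockout difference. The genes next to TXN, its nearest profiles, and DNTT, VPREB1, MSRB1, MSRA, MAFG, ME3, IDH2 and NNT were chosen after values were seen. A planned marker gene is not reported here. The number of arrays, 1 per genotype, limits the precision.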

Additional observations from a re-analysis of the deposited data

How the results depend on the processing

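Of 411 recomputed values, 366 stayed within the spot SD or the count limit, 44 moved beyond it and 1, the Arp5 KO median over member probes, reversed. The 366 include values that could not change. The series matrix (39 values) is the same intensity times 1 factor per array, which the scaling removes. The filters for probes well above background on both arrays (36) and on all 4 arrays (36) dropped none of the 11 tested member probes. Values of single genes could not change with no filter and no floor either. Genes with 1 probe could not change with the brightest probe, nor genes without a spot beside a bright one when such spots were left out. Uncalled values of single genes that changed sign by more than the spot SD are among the 44. Smaller sign changes are among the 366, such as TXN2 in Arp8 OE, at 0.01 and, scaled to the median, -0.02. The Arp8 OE median over member probes, -0.01, likewise became 0.001 with no filter and no floor and 0.01 without the TXN probes. TXN kept its direction and its side of 2-fold in Arp8 KO and Arp8 OE under each scaling, the normexp correction and its brightest probe. Its differences ran from -1.74 to -1.68 in Arp8 KO and from -1.61 to -1.53 in Arp8 OE. The series matrix and the filters on background or neighbouring spots could not move TXN, since they kept both of its probes. With Arp8 OE in place of WT as the reference, the median over member probes was 0.025 for Arp5 KO, with 2 probes higher, both of TXN, and -0.045 for Arp8 KO, with 0 lower. TXNRD1 was then 0.56 in Arp5 KO and 0.18 in Arp8 KO. The TXN and TXNRD1 levels were low on the Arp8 OE array, and PRDX1 and PRDX3 also turned positive in Arp5 KO, at 0.12 and 0.25. TXN2, TXNRD2, PRDX2 and PRDX5 stayed below 0 there. The Arp8 KO median was -0.42 with no filter and no floor and -0.27 with the brightest probe of each gene, which left 1 lower probe in Arp8 KO and 1 in Arp8 OE because TXN then counts once. Leaving out spots beside a spot bright on 1 array gave an Arp8 OE median of -0.23. At 1.5-fold the Arp8 KO count was 5. Chosen after seeing the data, leaving out the TXN probes gave an Arp8 KO median of -0.27 and 0 lower probes in Arp8 KO and in Arp8 OE. Normexp moved the median of the 20 genes next to TXN to -0.73 (Arp8 KO) and -0.90 (Arp8 OE), and the TXNRD1 difference to -0.55 and -0.64; the cause was not tested. No paired analysis was possible because the groups share fewer than 2 replicate numbers. One culture per genotype, a shared WT array and conflicting heme labels limit every comparison.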
